A study of Mus musculus with 22 samples.

Results

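Intronic 5′ end regions are places inside the introns of annotated genes where sequenced RNA molecules of the mouse primary motor cortex began. They were chosen by their annotation alone: all features whose class in the deposited annotation is "Intron", on the strand of the gene they lie in. The annotation lists 17768 such features, and counts were analysed for the 17364 of them in the count table, 15.5% of its 112366 endogenous features. The other 404 were not analysed here. They lie in 6691 host genes with a single symbol, and 93 features that carry several symbols entered the feature-level values only.

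The study compared male C57BL/6 mice of 2 genotypes, wild type (WT) and BERKO, a line that lacks estrogen receptor beta, the product of Esr2. All mice were 16 to 20 weeks old and none was treated, and the labels do not describe the deleted allele. A left and a right needle biopsy of the M1 cortex was taken from each of 6 WT mice (replicates 1 to 6) and 5 BERKO mice (replicates 2 to 6), giving 22 biopsies. The 4 groups were WT right, WT left, BERKO right and BERKO left, and 10 ng of total RNA of each biopsy was sequenced by STRT, in which reverse transcription adds a tag where the 5′ end of an RNA lies. A biopsy pools all cells of the tissue, so fewer cells of a type and less RNA per cell cannot be told apart.

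Most RNAs begin at the first exon of a gene. A 5′ end inside an intron can come from an alternative promoter, which gives a shorter transcript and often a shorter protein, from a small or antisense RNA gene, from an enhancer, or from a broken or primed piece of unspliced pre-mRNA. Long neuronal genes are known for both alternative promoters and long introns. The counts hold no length term, since each read marks 1 beginning of an RNA, so levels are given as CPM, endogenous counts scaled to a common library total after TMM scaling.

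The fewest endogenous reads were 248354, in BERKO replicate 5 on the left, which has 1 lane, and the most 2011941, in WT replicate 1 on the right. Per mouse they ranged from 1418084 to 2899377 in WT and from 1010647 to 1695183 in BERKO. A count of 0 in a biopsy allows up to 1.49 CPM at the greatest depth and 12.1 CPM at the lowest, for counting error only. Esr2 has 3 features, of which 0 are in introns, and reads of it were present in 3 biopsies (3 reads in the right biopsy of WT replicate 1, 6 and 4 reads in the left biopsies of BERKO replicates 3 and 5), too few to check the genotype labels. By mouse, 5′-UTR features held 63.4% ± 1.48 of WT reads (SD, n = 6) and 61.3% ± 1.16 of BERKO reads (SD, n = 5), while CDS features held 8.89% ± 1.10 and 11.1% ± 0.859.

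Intron features were many but thinly filled. Of the 17364, 8402 (48.4%) had 0 reads in all 22 biopsies, 4540 had reads in exactly 1 biopsy, 1058 in 11 or more and 167 in all 22. Among 5′-UTR features 7.27% had 0 reads and 34.7% had reads in every biopsy. Intron features held 419664 reads, 2.08% of the endogenous total. The 167 features present in every biopsy held 45.3% of these reads, and the 10 features with most reads held 16.4%. Over host genes with at least 100 reads in all features, 4698 in number, the median share of a gene's reads that fell in its introns was 1.83%. In 1294 of them it was 0%, in 241 it was over 50% and in 68 it was over 90%.

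**Figure D1:**
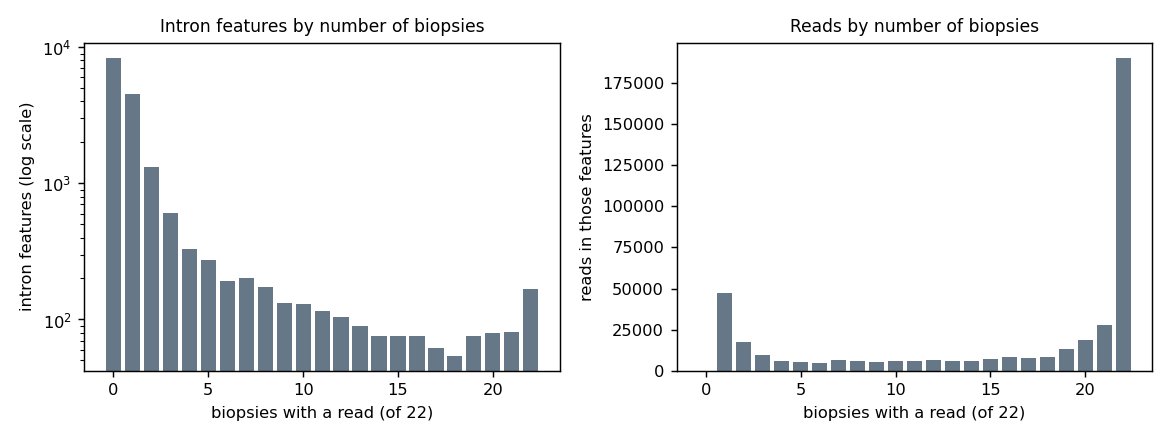
Number of intron features (left, log scale) and reads in them (right) against the number of biopsies, of 22, in which a feature had a read. The 8402 features without a read and the 4540 with reads in 1 biopsy make up most features, while the 167 present in all 22 biopsies hold most reads of any bar.

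The right biopsies of WT replicates 3 and 1 stood apart in introns. Intron features held 3.96% of reads in the right biopsy of WT replicate 3 and 2.45% in that of WT replicate 1, against 1.63% to 2.07% in the other 20 biopsies. Both libraries were deep, at 1647246 and 2011941 endogenous reads against at most 1271773. At the common depth of the shallowest biopsy they were expected to show 3490 and 2066 intron features, against 826 to 1193 in the others. The feature set includes features seen in 1 of these libraries alone, so this count does not set depth aside. The 3 lanes of the right biopsy of WT replicate 3 gave 3.83%, 3.88% and 4.12%. Some other classes were also high in the same libraries. Unannotated features held 6.51% and 5.32% of reads against 3.09% to 4.78%, and noncoding exons other than the first 0.225% and 0.184% against 0.0316% to 0.0564%. Their CDS and 3′-UTR share, 12.6% and 14.7%, lay within the range of the others (10.5% to 20.9%).

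The features seen in a single biopsy came mostly from these libraries. The right biopsy of WT replicate 3 held 2041 of the 4540 and that of WT replicate 1 held 802, while each other biopsy held 10 to 137. Of 1317 features with reads in exactly 2 biopsies, 471 had them in this pair of libraries and 66 in the next most frequent pair. Single-biopsy features carried a median of 11 reads, with 1300 of them at exactly 10 reads and 20 at 9. The sources used here do not say how features were drawn. A step at 10 reads means that a deeper library can add more features of its own, and WT libraries were deeper. The part of depth in the results was not tested. Many comparisons that rest on these libraries are given with and without them, but not all.

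The features that recur and those seen once differed in their median distance from the start of their genes, with overlapping ranges. Features with a read in all 22 biopsies had a median distance of 7.69 kb (middle 50%, 0.561 to 68.7 kb, 108 features) from the most upstream 5′-UTR or noncoding first-exon feature of the gene. Those seen in the right biopsy of WT replicate 3 alone lay a median of 73.2 kb away (24.3 to 223.9 kb, 1317 features). For the features seen in the right biopsy of WT replicate 1 alone it was 36.9 kb (11.9 to 98.9 kb, 499 features). Over all features seen in 1 biopsy it was 50.1 kb (13.4 to 145.0 kb, 2916 features), and for those with 0 reads 27.5 kb (8.24 to 83.0 kb, 5418 features). Features without such a feature upstream of them have no distance and were left out. As a count on the opposite strand, 586 unannotated features seen in the right biopsy of WT replicate 3 alone lay antisense within a gene's span, against 2027 sense intron features, a ratio of 3.46. That ratio was 5.93 for WT replicate 1 and 8.30 for features present in all 22 biopsies. It was 4.25 over all features seen in 1 biopsy and 4.45 for those with 0 reads. Distances are in mm9 as deposited, and they are descriptions without a test.

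The most abundant member began inside Mef2c, a transcription factor gene of cortical excitatory neurons. This feature, at chr13:83663915 on the plus strand of mm9 (intron), held 17167 reads and lay 20.9 kb downstream of the gene's most upstream 5′-UTR feature. It accounted for 75.7% of all reads of Mef2c. Its level in WT was lowest at 182 CPM, median 945 and highest at 1102, and in BERKO replicates 2 to 6 it was 832, 1019, 1122, 1153 and 868 CPM. WT replicates 1 and 2 were low, at 182 and 547 CPM, and the genotypes overlapped.

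Of the 10 leading features 9 are described here. Cit, whose brain product citron-N lacks the kinase domain of citron kinase, had a feature at chr5:116357503 (plus strand, intron) with 6911 reads, 75.2% of the gene's reads. It was lowest at 135, median 333 and highest at 414 CPM in WT, and 464, 339, 508, 469 and 304 CPM in BERKO.

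Sept5, a septin of presynaptic terminals, had its feature at chr16:18626534 on the minus strand, with 316 ± 51.8 CPM in WT and 402 ± 117 in BERKO. Grin2b, an NMDA receptor subunit, had 38.9% of its reads in a feature 0.715 kb from its first 5′-UTR feature, at chr6:136122406 (minus strand), with 255 ± 35.1 and 214 ± 46.8 CPM. Lrrc4c, which encodes the postsynaptic netrin-G ligand NGL-1, had 57.6% of its reads at chr2:97306623 (plus strand), with 185 ± 65.9 and 255 ± 55.5 CPM. Phactr1, a regulator of actin and protein phosphatase 1, had 36.8% of its reads at chr13:42776970 (plus strand), with 250 ± 104 and 278 ± 67.3 CPM. In each of these features the genotypes overlapped.

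The other leading features lay in Tecpr2, an autophagy gene, at chr12:112136288 (342 ± 67.2 CPM in WT and 333 ± 48.3 in BERKO), in Tsc22d4 at chr5:138199412 (276 ± 77.6 and 306 ± 44.0 CPM), and in the transcription factor gene Tcf4 at chr18:69753066 (217 ± 20.5 and 222 ± 52.3 CPM), all on the plus strand. The features of Tecpr2 and Tsc22d4 held 92.3% and 89.97% of the reads of their genes, so most counted 5′ ends of these genes lay in an annotated intron. The spread over all 11 mice was 16.5% of the mean for Tcf4 and 33.2% for Mef2c, the lowest and highest of these 9. None of the 9 passed the genotype test: the smallest unadjusted p was 0.0479 for Sept5, with an edgeR quasi-likelihood adjusted p of 0.427.

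**Figure D2:**
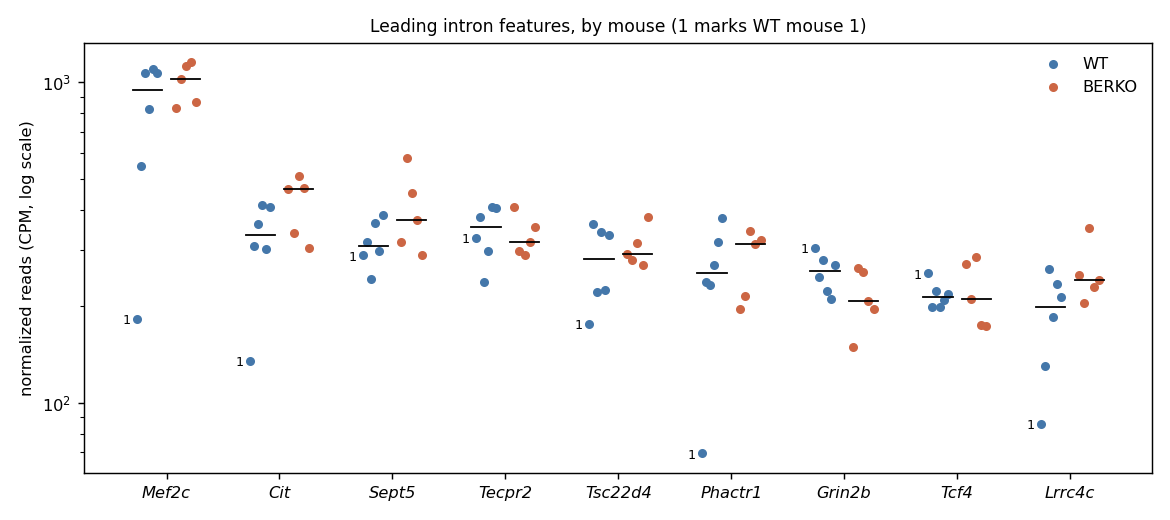
Normalized reads (CPM, log axis) of 9 leading intron features in each WT (blue) and BERKO (orange) mouse, with a line at the median of each genotype. WT replicate 1, marked 1, is lowest of all 11 mice in 5 of the 9: Mef2c, Cit, Tsc22d4, Phactr1 and Lrrc4c.

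WT replicate 1 was the lowest of the 11 mice in 5 of these 9 features. In Mef2c, Cit and Phactr1 both of its biopsies were the lowest of the 22, while in Tsc22d4 and Lrrc4c at least 1 of them lay above another mouse's biopsy. Mef2c was at 167 CPM on the right and 190 on the left, against 492 to 1315 in the other 20 biopsies. Over all features of the genes, the summed level of 15 striatal markers measured (of 16) was 631 to 1106 CPM in both biopsies of WT replicate 1 and the left biopsy of WT replicate 2, and 317 to 631 in the other 19, with 2 and 0 of the markers at 0. The median of the 3 was 634 CPM and the highest of the 19, a BERKO biopsy, was at 630.6, so these striatal sums nearly met. Oligodendrocyte markers, 28 measured of 29, summed to 2958 to 4256 CPM in those 3 biopsies and 6139 to 24420 in the others, with 1 and 0 at 0. The part of other regions or cell types in the low values was not tested.

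By host gene, those with the highest intron level included Mef2c, Cit, Tcf4, Rbfox1, Sept5, Tecpr2, Phactr1, Tsc22d4, Grin2b, Lrrc4c, Celf4, Zmynd8, Myo10 and Chd9. In most of them 1 feature carried the intron signal: the leading feature held 97.0% of the intron reads of Mef2c and 100% of those of Tsc22d4. Tcf4, Zmynd8, Chd9 and Rbfox1, a splicing regulator of neurons, were spread out. Tcf4 had 34 of 36 features with reads and 49.3% of intron reads in the leading one, and Rbfox1 63 of 64 with 43.6%. Of the Rbfox1 features 29 had reads in 1 biopsy only, 23 of them in the right biopsy of WT replicate 3. Chd9 had 41 of 50 features with reads and 34.2% of intron reads in the leading one, and Zmynd8 10 of 17 with 39.5%. Intron reads made up 96.6% of Myo10, an unconventional myosin of which brain also makes a headless form, and 30.9% of Celf4, an RNA-binding protein gene.

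The 5 host genes with the most intron features were Rbfox1 (64), the potassium channel gene Kcnma1 (61), Ank3 (58), which encodes ankyrin-G, the teneurin gene Tenm2 (57) and the histone deacetylase gene Hdac9 (56). Many features did not mean many reads. Hdac9 had reads in 7 of its 56 features and 98 intron reads in all, and was too low to be tested. Kcnma1 had 451 intron reads, of which 62.5% came from the right biopsy of WT replicate 3, whereas in Rbfox1 this library gave 12.3% of 7905.

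With both sides summed, genotype did not change the share of intron reads detectably. The left biopsies alone, in which the BERKO mean was higher, are described with the sides below. By mouse, the share was lowest at 1.81%, median 1.89% and highest at 3.02% in WT. It was 1.85%, 1.81%, 2.00%, 1.91% and 1.78% in BERKO replicates 2 to 6. WT replicates 3 and 1 (3.02% and 2.26%) were the high values and the genotypes overlapped. The difference, BERKO minus WT, was -0.246 percentage points (two-sided exact permutation test over 462 splits, p = 0.351, adjusted over 9 classes 0.395). Without the right biopsies of WT replicates 1 and 3 it turned to 0.0429 (1.83% ± 0.0528 against 1.87% ± 0.0862, exact permutation p = 0.342). Over the 1058 features with a read in 11 or more biopsies the shares were 1.52% ± 0.0649 and 1.52% ± 0.0793, a difference of 0.00639 points (exact permutation p = 0.887). In the same family, unannotated features were lower in BERKO (4.54% against 3.56%, adjusted exact permutation p = 0.0260), and CDS and 3′-UTR features higher (adjusted p = 0.0260 for each).

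**Figure D3:**
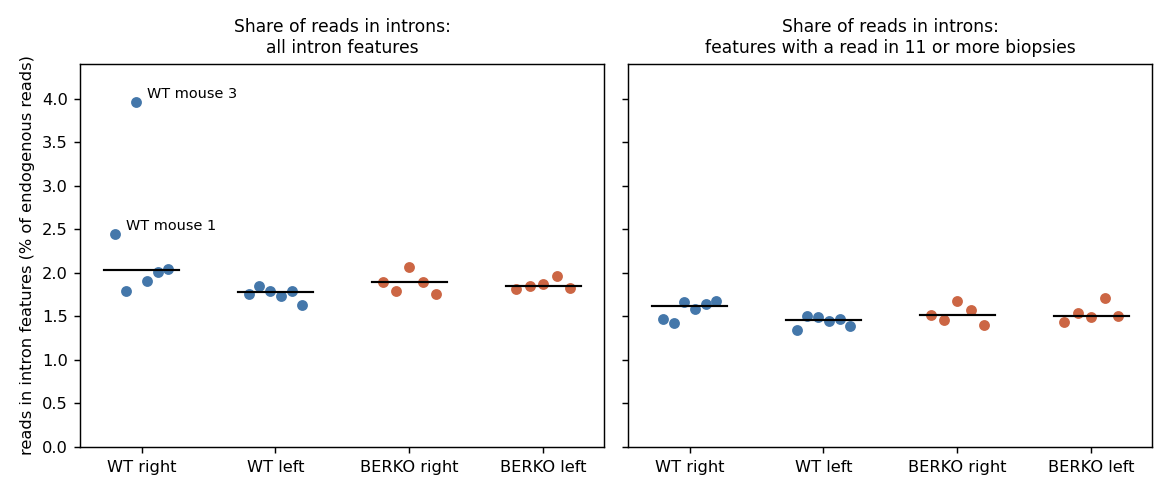
Percent of endogenous reads in intron features in each biopsy, by genotype and side, for all intron features (left) and for those with a read in 11 or more biopsies (right), with the median of each group as a line. The right biopsies of WT mice 3 and 1 stand at 3.96% and 2.45% on the left and among the other biopsies on the right.

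The difference between sides rested on the same libraries. The right biopsies held 2.14% ± 0.633 of reads in introns (SD, n = 11) and the left 1.81% ± 0.0841, a mean difference within mice of 0.333 points (two-sided exact sign-flip permutation test, p = 0.0381), with the right higher in 7 of 11 mice. Without WT replicates 1 and 3, the right was higher by 0.0893 points and in 5 of 9 mice (exact permutation p = 0.152). Leaving out WT replicate 3 alone gave 0.149 points and WT replicate 1 alone 0.297, each with an exact permutation p of 0.0762. The p also rose above 0.05 when WT replicate 4, 5 or 6 or BERKO replicate 2 or 4 was left out, at 0.325 to 0.359 points. The difference was 0.601 points in WT mice and 0.0113 in BERKO mice, and the difference between these was not tested. On the left alone, the BERKO mean exceeded WT by 0.107 points (1.87% ± 0.0574 against 1.76% ± 0.0727, exact permutation p = 0.0173), and on the right alone the difference was -0.4825 points (exact permutation p = 0.1905).

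At the common depth of 1010600 reads per mouse, WT mice were expected to show 1796 intron features at the lowest, a median of 2087 and 4884 at the highest. The BERKO mice lay between 1669 and 1848, so the groups overlapped (BERKO minus WT -913.8, exact permutation p = 0.0866). Without the right biopsies of WT replicates 1 and 3, at a common depth of 752360 reads, the means were 1710 ± 262 and 1676 ± 74.2, a difference of -34.0 (exact permutation p = 0.803). Leaving out any 1 WT mouse brought the exact permutation p to 0.0317 or below, with a difference of -475 without WT replicate 3 and -785.5 without WT replicate 1. The set counted includes 2041 features seen only in the right biopsy of WT replicate 3 and 802 only in that of WT replicate 1. A common depth does not remove features that entered the set through deep WT libraries, so these values cannot separate genotype from depth.

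No intron feature passed the genotype test. Of 13128 features of all classes tested, 14 (0.107%) had an edgeR adjusted p under 0.05, and 0 of them were among the 512 intron features tested. The filter on low counts thus kept 512 of 17364 members. At an unadjusted p under 0.05 there were 39 intron features (15 higher and 24 lower in BERKO), or 7.62%, against 11.6% of all features. The higher ones were 2.93% of intron features against 5.89% of all, and the lower ones 4.69% against 5.68%. The median log2 difference was -0.04 for intron features and 0.01 for all other features. The genotypes did not overlap in 5 intron features (0.977%, with 0.586% higher and 0.391% lower in BERKO), against 1.84% of all those tested.

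The intron features of smallest p were mostly lower in BERKO. The first was in Slitrk4, a synaptic adhesion gene on the X chromosome, at chrX:61529110 (minus strand), with a log2 difference of -1.79 ± 0.55 (SE) and an edgeR adjusted p of 0.214. WT was lowest at 11.3, median 16.8 and highest at 30.9 CPM, and BERKO replicates were at 2.15, 7.97, 9.34, 4.87 and 0.592 CPM. All 5 BERKO mice lay below all 6 WT mice. The second was in Naa38, a subunit of an N-terminal acetyltransferase, at chr11:69209629 (plus strand), with 102 ± 25.5 CPM in WT and 66.4 ± 5.93 in BERKO. Its log2 difference was -0.63 ± 0.20, or -0.43 without the right biopsies of WT replicates 1 and 3.

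Next came the synaptic vesicle gene Sv2b (log2 -2.46 ± 0.78), the nucleolin gene Ncl (-1.61 ± 0.52), a pair of features in Cmip (-0.60 ± 0.20 and -2.05 ± 0.63), the imprinted adaptor gene Grb10 (-1.95 ± 0.66), Pik3r1, which encodes a regulatory subunit of PI3-kinase (-1.40 ± 0.48), Ncdn (-1.07 ± 0.37) and, as the only higher one, Cspg5, a neural proteoglycan gene (0.57 ± 0.20). Their edgeR adjusted p ran from 0.229 to 0.263. Most were low, such as Sv2b at 8.54 ± 4.18 and 1.59 ± 1.34 CPM. The 5 features without overlap were those of Slitrk4 and Pik3r1, lower, and of Mprip (chr11:59573970), Ndufs4 (chr13:115178019) and Pdzph1 (chr17:59072178), higher. The Ndufs4 feature, in a gene of respiratory complex I, held 3.68% of the gene's reads, with 6.84 ± 3.43 CPM in WT mice and 14.3 ± 2.04 in BERKO mice. The last 3 were named after their values were seen.

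Summing the intron features of each host gene gave the same picture. Of 9351 rows (1 intron row and 1 row of all other features per gene), 8 (0.0856%) were called by edgeR, and 0 of 557 intron rows were. At an unadjusted p under 0.05 there were 43 intron rows, 15 higher and 28 lower (7.72%, against 9.99% of all rows). The higher ones were 2.69% of intron rows against 5.38% of all, and the lower ones 5.03% against 4.61%. The genotypes did not overlap in 3 intron rows (0.539% against 1.4% of all rows): Slitrk4, lower (0.18%), and Ndufs4 and Pdzph1, higher (0.359%). The median log2 difference was -0.08 over intron rows and 0.00 over the others. Without the right biopsies of WT replicates 1 and 3, the median of intron rows was 0.00 and 463 were tested, with 0 called.

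Cmip, which encodes c-Maf-inducing protein, a signalling adaptor, had the smallest p. Its intron rows summed to a lowest of 109, a median of 162 and a highest of 291 CPM in WT, and to 109, 105, 92.6, 102 and 83.0 CPM in BERKO. WT replicates 1 and 2 were highest, at 291 and 215 CPM, and WT replicate 6 overlapped BERKO. The log2 difference was -0.85 ± 0.21 with an edgeR adjusted p of 0.136, or -0.95 with an adjusted p of 0.187 without the right biopsies of WT replicates 1 and 3. Without both biopsies of WT replicate 1 and the left biopsy of WT replicate 2, the libraries lowest in oligodendrocyte markers, it was -0.46 with an edgeR adjusted p of 0.501. DESeq2 called it, with an adjusted p of 0.0387. The leading Cmip feature lay at chr8:119903269 and held 71.9% of the intron reads, and the second lay at chr8:119927742, both on the plus strand.

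The next host genes were Slitrk4 and Naa38, then Olfm2, which encodes a secreted olfactomedin (0.74 ± 0.25), the kinase gene Akt2 (0.96 ± 0.33), Celf2, an RNA-binding splicing regulator (-2.58 ± 0.81), the chromodomain helicase gene Chd9 (0.52 ± 0.18), Ncdn (-1.03 ± 0.36), the focal adhesion gene Lims2 (1.59 ± 0.56) and the calcium-binding calneuron gene Caln1 (-1.52 ± 0.55). Their edgeR adjusted p ran from 0.279 to 0.329. Celf2 was high in WT replicates 3 and 1. Its intron rows were at 111 CPM in WT replicate 3 and 55.2 in WT replicate 1, 7.73 to 16.3 in the other WT mice and 1.98 to 8.75 in BERKO, and 52.4% of its intron reads came from the right biopsy of WT replicate 3. Without the right biopsies of WT replicates 1 and 3 its log2 difference was -0.81, and it was -1.76 without WT replicate 3 and -2.42 without WT replicate 1. Without WT replicate 1, the highest in Caln1 at 50.4 CPM against at most 20.4, the log2 difference of Caln1 was -0.90 with an edgeR adjusted p of 0.689. Chd9 went the other way, from 0.52 to 0.82.

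**Figure D4:**
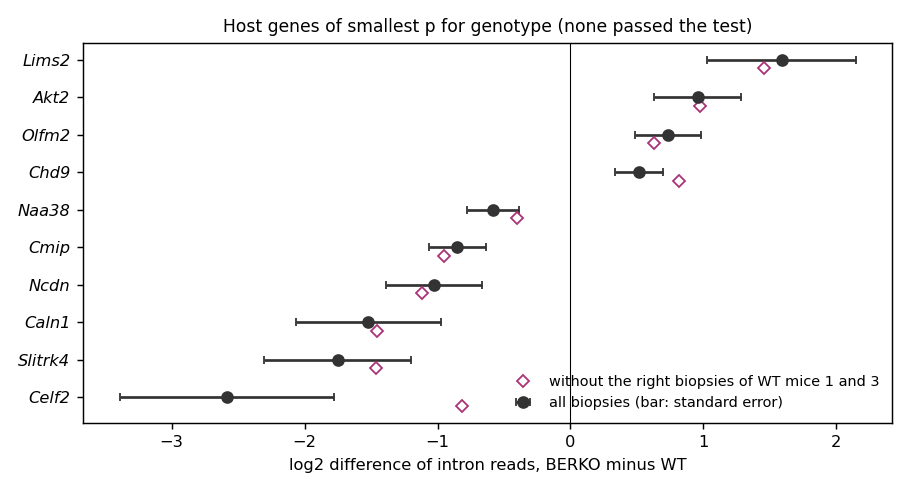
Log2 difference of summed intron reads, BERKO minus WT, for the 10 host genes of smallest p, with the standard error as a bar (black), and the same without the right biopsies of WT mice 1 and 3 (open diamonds). Celf2 moves from -2.58 to -0.81, all 10 keep their direction, and none passes the adjusted threshold in either fit.

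The ratio test asked whether intron reads moved differently from the other reads of the same gene. Of 448 genes with enough reads in both, 0 (0%) were called by edgeR, and 37 (8.26%) had an unadjusted p under 0.05, 6 (1.34%) with a higher and 31 (6.92%) with a lower intron share in BERKO. The median of all 448 was -0.21 on the log2 scale, with 287 genes lower and 161 higher, and -0.17 without the right biopsies of WT replicates 1 and 3. CDS and 3′-UTR reads, which are counted among the other reads, were higher in BERKO (11.1% against 8.89% and 6.59% against 5.08%), and their part in the ratios was not tested.

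Cmip again had the smallest p in this test. In it 51.3%, 41.0%, 37.8%, 30.5%, 41.2% and 35.9% of reads fell in introns in WT replicates 1 to 6, and 23.9%, 17.5%, 19.1%, 19.7% and 20.4% in BERKO replicates 2 to 6, so every BERKO mouse was below every WT mouse. The intron level was 177 ± 68.0 CPM in WT and 98.3 ± 10.5 in BERKO, whereas its other features were at 262 ± 59.7 and 394 ± 65.9 CPM. The log2 difference of the ratio was -1.38 ± 0.31 with an edgeR adjusted p of 0.180, and -1.37 without the right biopsies of WT replicates 1 and 3. Without both biopsies of WT replicate 1 and the left biopsy of WT replicate 2 it was -1.08 (edgeR adjusted p = 0.455). With a stricter filter (a minimum count of 30, 137 genes tested) its adjusted p was 0.00711.

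Sbno1, of the strawberry notch family, had 69.1% ± 3.61 of its reads in introns in WT and 52.3% ± 5.29 in BERKO, again with no overlap (log2 -1.03 ± 0.33, edgeR adjusted p = 0.484). Its intron level was 114 ± 13.9 and 102 ± 32.1 CPM, and that of its other features 50.6 ± 7.52 and 90.2 ± 22.5 CPM. The remaining genes of smallest p were Pik3r1 (-1.61 ± 0.50), Fam131a (-2.08 ± 0.65) and the adhesion gene Ntm (-1.13 ± 0.36), each with an edgeR adjusted p of 0.484. The intron shares of the genotypes did not overlap in 8 of 448 genes (1.79%), 7 lower (1.56%) and 1 higher (0.223%). Among these Chd9 was the higher one, at 68.6% ± 6.73 in WT and 80.1% ± 2.99 in BERKO. Clu, an astrocyte-rich gene, was at 2.57% ± 0.403 and 1.55% ± 0.194.

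**Figure D5:**
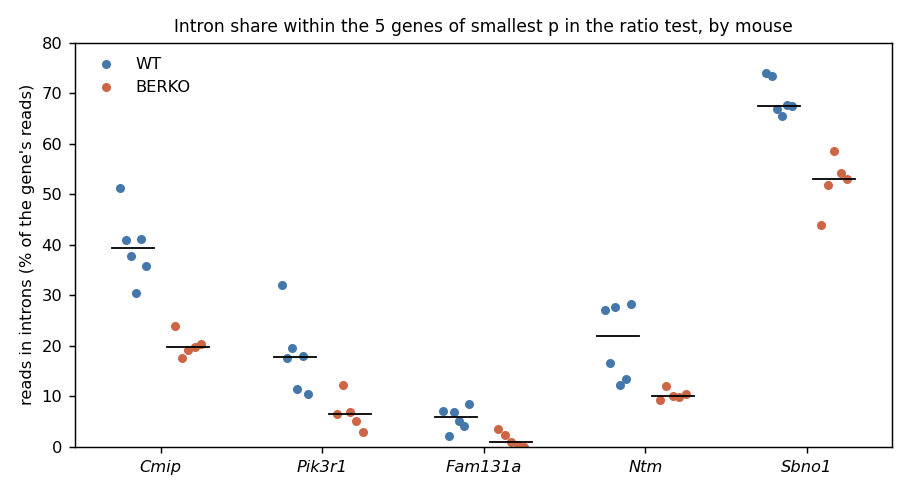
Percent of a gene's reads that fell in its introns in each WT (blue) and BERKO (orange) mouse, for the 5 genes of smallest p in the ratio test, with a line at each median. In Cmip, Ntm and Sbno1 every BERKO mouse lies below every WT mouse, and in Pik3r1 and Fam131a the genotypes overlap.

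Between the sides, 0 of 8568 rows (0%) were called by edgeR, and 0 of the 433 intron rows. At an unadjusted p under 0.05 there were 30 intron rows, 24 higher on the right and 6 higher on the left (6.93%, against 5.5% of all rows). Those higher on the right were 5.54% of intron rows against 2.98% of all, and those higher on the left 1.39% against 2.52%. These counts are not given without the right biopsies of WT replicates 1 and 3. The median log2 difference of intron rows was 0.151 with them and 0.136 without them. Arpp19, which encodes an inhibitor of protein phosphatase 2A, was higher on the right in 11 of 11 mice. Its means on the right were 57.8 ± 34.8 CPM in WT and 80.4 ± 17.5 in BERKO, and on the left 17.3 ± 13.1 and 51.1 ± 26.8. The log2 difference, right minus left, was 1.28 ± 0.27 with an edgeR adjusted p of 0.188, and 1.23 without the right biopsies of WT replicates 1 and 3. All of its intron reads lay in 1 feature, and limma-voom and DESeq2 called it, with adjusted p of 0.0361 and 0.00280.

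Rbfox1 was higher on the right in 10 of 11 mice, at 451 CPM against 325 on the left (log2 0.47 ± 0.12, edgeR adjusted p = 0.309). The value of the scaffold gene Magi2 (log2 4.41 ± 1.15, adjusted p = 0.309) rests on few libraries: 59.0% of its 251 intron reads came from the right biopsy of WT replicate 3, and 5 of 6 WT left and 4 of 5 BERKO left biopsies had 0. It was too low to be tested without that library and the right biopsy of WT replicate 1.

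For the interaction of genotype and side, 0 of 433 intron rows and 0 of all 8568 (0%) were called, and 19 intron rows had an unadjusted p under 0.05 (4.39%, against 3.1% of all rows). Of these 4 had a positive and 15 a negative interaction (0.924% and 3.46%, against 1.48% and 1.62% of all rows). These counts are not given without the right biopsies of WT replicates 1 and 3. The median interaction of intron rows was -0.175 with them and -0.153 without them. The smallest p were in the postsynaptic scaffold gene Dlg2 (-4.75 ± 1.31), Tenm2 (-2.11 ± 0.57) and the cAMP phosphodiesterase gene Pde4d (-1.22 ± 0.37), each with an edgeR adjusted p of 0.999. In Pde4d the WT right and left means were 102 ± 27.9 and 76.9 ± 26.9 CPM, and those of BERKO 73.0 ± 14.96 and 126 ± 24.5. The right biopsies of WT replicates 3 and 1 held 41.8% and 24.2% of the intron reads of Dlg2, and its value without them is not given here. In Tenm2 the WT right biopsies had a median of 115 CPM and a highest value of 435 CPM. Over 17 alternatives, among them a fit without both libraries, the interaction was -2.54 to -1.72 in Tenm2 and -1.39 to -1.04 in Pde4d.

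The share of genes that host an intron feature differed between the neuronal lists. Of 48 postsynaptic genes 46 have an intron feature, of 50 synaptic adhesion genes 35, of 53 ion channel genes 38, of 66 splicing factor genes 37 and of 44 genes of cAMP and GTPase signalling 39. Of 28 activity-regulated genes 7 have one, and of 18 interneuron markers 9. A share over all genes is not given here. Few genes of these lists passed the filter on low counts. Of 13 postsynaptic genes tested 3 were higher and 10 lower in BERKO, with a median log2 difference of -0.90 and 0 called, against 247 higher, 310 lower and a median of -0.08 over all 557 intron rows. Without the right biopsies of WT replicates 1 and 3 it was 4 higher and 4 lower with a median of 0.00. The members of smallest p were Dlg2 (-1.37 ± 0.57), Gria2, a glutamate receptor subunit gene (-1.56 ± 0.70), and Grm5, a metabotropic glutamate receptor gene (-0.92 ± 0.47).

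Other neuronal lists held mostly lower values in BERKO as well, with 0 called. Of 5 ion channel genes 4 were lower, with a median of -0.995, and 2 of 4 with a median of 0.02 without them. They included Kcnma1 (-2.59 ± 1.09) and the sodium channel gene Scn1a (-0.75 ± 0.28). Of 8 synaptic adhesion genes 6 were lower, median -0.44, and 3 of 8 without them, median 0.08. Opcml, an adhesion gene of this list (-1.60 ± 0.80), took 61.0% of its intron reads from the right biopsy of WT replicate 3. Of 10 presynaptic genes 8 were lower (median -0.48), and 8 of 9 without the libraries (median -0.37), with Syt1, the calcium sensor of vesicle release, at -0.76 ± 0.36 and Rims1, of the active zone, at -0.95 ± 0.47. All 400 reads of Rims1 lay in introns.

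Of 9 cytoskeletal genes 6 were lower (median -0.30), of 9 cAMP and GTPase genes 7 (-0.21) and of 8 splicing factor genes 5 (-0.29). Of 6 genes tested from a list of nuclear and imprinted noncoding RNAs 4 were lower (-0.12), and of 5 hosts of small RNAs 3 (-0.19). The noncoding RNA list also held the protein-coding gene Ptprd (-1.13 ± 0.72), so its values are not of noncoding RNA genes alone. Snhg11 was counted both in that list and among the hosts of small RNAs. In each list 0 were called. Without the right biopsies of WT replicates 1 and 3, the medians were -0.20 for cytoskeletal (3 of 5 lower), -0.10 for cAMP and GTPase (6 of 8) and -0.07 for splicing factor genes (5 of 8). The medians of the other lists turned positive, at 0.15 for the noncoding RNA list and 0.07 for hosts of small RNAs, each with 1 of 4 lower. Ncl, whose introns hold small nucleolar RNA genes, had 18.2 ± 7.96 intron CPM in WT mice and 9.03 ± 3.17 in BERKO mice (log2 -1.01 ± 0.43, edgeR adjusted p = 0.436). The noncoding RNA gene Rmst, with 1 feature and 147 reads, was at -2.01 ± 0.79. Of the activity-regulated genes only Vgf was tested, at -0.75 ± 0.67.

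Markers of other cell types gave few testable intron rows. Of 25 astrocyte markers 14 have an intron feature and 8 were tested, 4 higher and 4 lower, with a median of 0.23 and 0 called (4 higher and 2 lower without the right biopsies of WT replicates 1 and 3, median 0.21). Gjb6, which encodes the astrocyte gap junction protein connexin 30, took 30.1% of its reads from 1 intron feature, at 28.5 ± 12.7 CPM in WT and 47.8 ± 9.66 in BERKO (log2 0.76 ± 0.30, edgeR adjusted p = 0.392). In P2ry12, a purinergic receptor gene of microglia, 88.3% of reads lay in introns, at 30.2 ± 6.95 and 41.6 ± 17.1 CPM (0.45 ± 0.31, edgeR adjusted p = 0.639). Of the oligodendrocyte markers Sept4 and Pde4b were tested (0.26 ± 0.51 and -0.63 ± 0.37), and Pde4b was also counted in the cAMP and GTPase list. Of the striatal markers Foxp1 was tested (-0.67 ± 0.45). Of the interneuron markers Npy, Gad1 and Cck were tested (0.92 ± 0.79, -0.66 ± 0.57 and 0.51 ± 0.50). Of 28 vascular markers 9 have an intron feature, with 82 reads in all, and 0 were tested.

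Over all features, not introns alone, the summed microglial markers (20 of 20 measured, 0 at 0) ranged from 847 to 1609 CPM in WT and from 1354 to 1809 in BERKO biopsies, and the astrocyte markers (25 of 25, 0 at 0) from 17500 to 39670 and from 23230 to 46740. Their part in the intron values of these genes was not tested.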

How the data were processed

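STRT sequencing counted RNA 5′ ends in 22 biopsies of 11 mice. The values deposited by the authors are raw counts, 1 column for each biopsy and lane (64 columns), with an annotation of class, gene and mm9 position. Bowtie and TopHat2 2.0.12 are named per the submitters' processing notes, and the sources used here do not give the rule for drawing features. Of 112460 rows, 38 spike-ins, 19 spike-in fragments and 37 ribosomal repeat rows were left out. Lanes were summed per biopsy, and biopsies per mouse for the genotype tests. The mouse number was read from the last digit of a column name, which the labels do not tie to it in words. Codes in the column names that may give the plate position run from A to C in WT and D to F in BERKO, so plate position and genotype cannot be told apart.

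Differences were tested with edgeR 4.0.16 in R 4.3.3 (quasi-likelihood, robust, TMM, default filter with a minimum count of 10, two-sided, Benjamini-Hochberg adjustment over all rows, threshold 0.05). The ratio test was the interaction of genotype with intron or other reads with the mouse as a block, and side and interaction tests also had the mouse as a block. Shares were compared with exact permutation tests over 462 splits (smallest possible p 0.00216). DESeq2 1.42.0, limma 3.58.1 (voom), other filters and scalings, and omitted mice or biopsies were alternatives. The scripts were tested on simulated data. Same-numbered WT and BERKO mice are different animals, and their deviations correlated by -0.034 to 0.056, so numbers were not used as pairs. That of the biopsies of a mouse was -0.12 to 0.345. Nothing states separate litters or batches, so p-values of the genotype tests on mouse sums measure only the spread between these mice. Those of the ratio, side and interaction tests measure only the spread of differences within these mice.

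Named were the 15 host genes and 10 features of highest level, the 10 of smallest p for genotype, 5 for the ratio, 3 for side and 3 for the interaction, up to 3 members of each list and the 5 hosts with most features. 1 gene that the rule names is not reported here. Members, lists and rules were chosen with earlier results of these data known.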

Additional observations from a re-analysis of the deposited data

Results flagged for a closer look

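Of 60 sets of 4 to 10 samples examined for a sample far from the others, 5 had one, where chance gives about 5%. Among the WT right biopsies, that of replicate 3 had 3.96% of its reads in introns, with the next at 2.45% and the lowest at 1.79%. The same biopsy held 2041 intron features seen in no other biopsy, with the next at 802 and the lowest at 70. Summed over sides, WT replicate 3 had an intron share of 3.02%, with the next at 2.26%. The intron level of Slitrk4 was 31.1 CPM in WT replicate 6, with the next at 16.9 CPM. That of Caln1 was 50.4 CPM in WT replicate 1, with the next at 20.4 CPM.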

How the results depend on the processing

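The genotype difference of the intron share was negative in all but 3 alternatives: it was 0.0429 points without the right biopsies of WT replicates 1 and 3, 0.00639 over features with a read in 11 or more biopsies (both chosen after seeing the data) and 0.107 in left biopsies alone. Leaving out 1 mouse gave -0.307 to -0.0649. The side difference kept its direction and lost p under 0.05 at 0.336 points without both biopsies of WT 1 and the left biopsy of WT 2, 0.0893 without the right biopsies of WT 1 and WT 3, 0.0689 over features with a read in 11 or more biopsies, 0.601 in WT and 0.0113 in BERKO mice. Leaving out 1 mouse gave 0.149 to 0.374, with p from 0.0254 to 0.0762. The difference in detected features was -1093 to -475 with 1 mouse left out (p from 0.00794 to 0.152).

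For the counts of called intron rows, which were 0 in each main test, no filter on low counts gave 4 features (Cmip and Crym lower, Csnk2a2 and Cab39 higher), 25 host genes (24 lower), 1 row for side (Arpp19) and 1 for the interaction (Tenm2). Without the filter the median log2 genotype difference itself was -3.14 over intron features (-0.33 over all features) and -1.13 over intron rows of host genes (-0.13 over all 18123 rows). The share called over all rows of these fits is not given here, so the 24 lower rows are not read as a result about introns. DESeq2 gave 1 feature (Zbtb20), 1 host gene (Cmip) and 2 rows for side (Arpp19 and Rbfox1), and limma-voom 3 for side (Arpp19, Celf2 and Dlgap2). The ratio test called 1 gene (Cmip) with a minimum count of 30. With 1 mouse left out it called 0 to 2 genes, and the side test 0 to 1, in each case without BERKO replicate 2. The cause was not tested. All other alternatives called 0. Spike-in scaling moved the median log2 genotype difference of all features to 0.26 and of all host gene rows to 0.20, and those of intron rows to 0.22 and 0.12. Under it, presynaptic genes were 5 higher and 5 lower, and astrocyte genes 7 higher and 1 lower (median 0.51). The noncoding RNA list had 4 and 2 (0.12), hosts of small RNAs 3 and 2 (0.02), and cytoskeletal and cAMP and GTPase genes each 4 and 5 (-0.12 and -0.05). The median of the pair of oligodendrocyte genes turned from -0.19 to 0.07. The other lists tested kept the sign of their median.

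With the replicate number as a block, the share difference was -0.217 (exact p = 0.750) and that of detected features -785.5 (exact p = 0.125, smallest possible 0.0625), and 0 features, host genes and ratios were called. The side share without the block gave 0.333 (permutation p = 0.0100), and 0 rows for side were called. The filter left 512 of 17364 features testable, so most members were not tested.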
